A study of Mus musculus with 2 samples.

Results

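Chemokines are small secreted proteins that attract leukocytes, and their receptors are G protein-coupled receptors that turn a chemokine gradient into movement. This account covers 10 of the 34745 genes measured, chosen by name as chemokine system genes of bone marrow (BM) progenitors: the receptors Cxcr4, Ccr1, Ccr2, Cx3cr1 and Ccr7, and the chemokines Ccl3, Ccl4, Ccl6, Ccl9 and Cxcl2. The choice was made with earlier results of these data known. Cxcr4 and its ligand Cxcl12 hold hematopoietic stem and progenitor cells in the BM niche, Ccr2 brings monocytes and their precursors out of the BM, and Ccl3 is known as an inhibitor of stem cell cycling. All 10 genes had at least 20 reads over both libraries, which was the limit for comparing a gene. Ccr7, with 3 reads at week-3, and Ccr1, with 5 reads at week-0, reached it mainly through the library in which they were higher.

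The cells were LSKs, lineage-negative BM cells positive for c-Kit and Sca1, sorted from C57BL/6 mice that carry the double transgene Scl/tTA-BA. In this tet-off model the Scl promoter drives the transactivator tTA, and tTA switches on BCR/ABL (BA) once doxycycline is withdrawn. The week-0 library came from mice at the time of withdrawal and the week-3 library from mice 3 weeks later, each as LSKs of 3 mice mixed together, and both groups carried both transgenes. There was 1 library per time point, so the spread between mice is unknown, no p-value is given, and each comparison is between these 2 libraries. Mouse age and sex were not given in the sources used here, and the BA transcript was not analysed here.

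Reads on genes numbered 6356164 at week-0 against 3886695 at week-3, a depth 1.64 times greater at week-0. The LSK markers were found in both libraries, among them Kit with an FPKM (reads per kilobase of exon, scaled by the total reads of the library) of 16.9 and 11.5, and Ly6a, which encodes Sca1, with 19.8 and 14.8. Of 14 LSK marker genes, 1 was past 2-fold higher and 4 were past 2-fold lower, and their summed FPKM was 590.1 at week-0 and 416.1 at week-3. Ratios are week-3 over week-0, scaled by total reads, and their 95% intervals are exact Clopper-Pearson intervals from the reads. Neither these intervals nor those of the levels include more than counting error, and amplified cDNA gives reads that are not separate molecules. Genes were called higher at a ratio of at least 2 and lower at a ratio of at most 0.5. In a mixed sorted population, a smaller share of cells of some type and less RNA per cell cannot be told apart.

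Of the 10 genes, 4 were higher at week-3 (Ccr1, Ccr2, Ccl6 and Ccl9), 4 were lower (Ccr7, Ccl3, Ccl4 and Cxcl2), and Cxcr4 and Cx3cr1 were past neither limit. Among all 12192 genes compared, 10.6% were higher and 15.6% were lower, and the median log2 ratio was 0.07. The median of the 10 genes was also 0.07, with 5 genes above 0 and 5 below. The 10 genes and the gene lists used here were chosen with earlier results of these data known. Their counts past 2-fold therefore describe them and test nothing against all genes. The log2 ratios of the 10 genes ran from -2.83 for Cxcl2 to 3.54 for Ccr2. Except for Ccr7, each gene that was called had an interval that lay wholly past 2-fold.

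**Figure D1:**
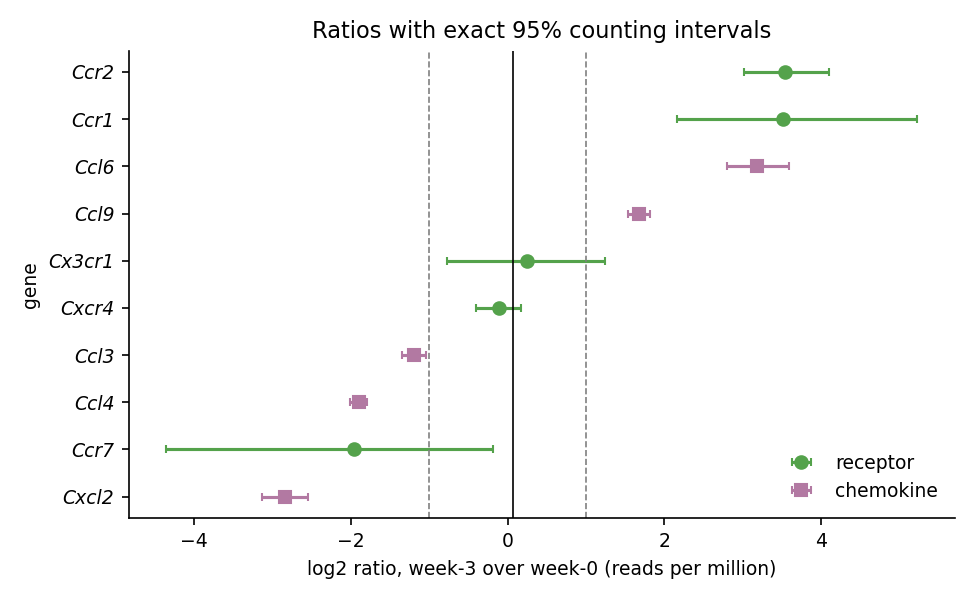
Log2 ratio of week-3 over week-0 for the 10 genes (x axis), with bars for the exact 95% counting interval; circles are receptors and squares are chemokines, dashed lines mark 2-fold, and the solid line marks the median of all compared genes, 0.07. Ccr2, Ccr1, Ccl6 and Ccl9 lie wholly to the right of the upper limit, while Cxcl2, Ccl4 and Ccl3 lie wholly to the left of the lower limit.

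Cxcr4 (ENSMUSG00000045382, protein-coding, at 128588199 to 128592293 on the minus strand of chromosome 1, in GRCm38 like all positions here) was the most abundant of the 5 receptors in both libraries. It had 287 reads at week-0, an FPKM of 16.7 (95% interval 14.8 to 18.7), and 162 reads at week-3, an FPKM of 15.4 (13.1 to 18.0). Its level was therefore nearly the same in the 2 libraries, with intervals that overlap. The log2 ratio was -0.12, and the interval from -0.40 to 0.17 leaves room for a ratio between 0.757 and 1.12. A change of 2-fold in either direction lay outside the counting interval, though not outside an unknown spread between mice. Cxcr4 made up 23.98% of all reads on chemokine receptor genes at week-0 and 23.82% at week-3. This total includes the atypical receptor Ccrl2, which was lower at week-3. Of the reads on signalling receptors alone, Cxcr4 took 52.2% (47.9 to 56.4) at week-0 against 29.8% (26.01 to 33.9) at week-3.

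Ccr2 (ENSMUSG00000049103, plus strand of chromosome 9 at 124101950 to 124113557), the receptor of Ccl2 and Ccl7 that marks inflammatory monocytes, had the largest ratio of the 10 genes. It had 34 week-0 reads and 242 week-3 reads. The FPKM was 0.381 (0.264 to 0.532) at week-0, against 4.43 (3.89 to 5.03) at week-3, and the 2 intervals lie far apart. The level at week-3 was 11.6 times that at week-0 (8.11 to 17.2), a log2 ratio of 3.54, which placed Ccr2 at rank 52 from the top among 12192 genes. Ccr2 held 2.84% (1.97 to 3.95) of all chemokine receptor reads at week-0 against 35.6% (32.0 to 39.3) at week-3, more than Cxcr4 at that time point. Per length of exon, Cxcr4 still had the higher level.

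Ccr1 (ENSMUSG00000025804, minus strand of chromosome 9 at 123962126 to 123968692), a receptor of Ccl3, Ccl6 and Ccl9 found on myeloid cells, had 5 week-0 reads and 35 week-3 reads. Its FPKM was 0.278 (0.0902 to 0.648) and 3.18 (2.22 to 4.42). The ratio was 11.4, close to that of Ccr2, but with so few reads the interval was wide, from 4.47 to 37.4. The ratio of Ccr1 divided by that of Ccr2 was 0.984, with an exact conditional 95% interval from 0.349 to 3.44, so the reads cannot tell which of the 2 ratios was larger. The coding sequences of Ccr1 and Ccr2 are identical at 61.2% of aligned positions, against 51.9% to 56.0% for the other pairs of these receptors.

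Cx3cr1 (ENSMUSG00000052336, minus strand of chromosome 9 at 119901616 to 120068283), the fractalkine receptor of monocytes and macrophages, had 22 week-0 reads and 16 week-3 reads. The FPKM was 0.503 (0.315 to 0.761) and 0.598 (0.342 to 0.971), with intervals that overlap almost wholly. The log2 ratio was 0.25 with an interval from -0.78 to 1.25, so a ratio anywhere from 0.584 to 2.37 is compatible with the counts. Cx3cr1 shares 78 exonic bases with Gm33858 on the other strand, and the cDNA kit named in the study's methods does not mark strand, so reads from those bases cannot be assigned.

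Ccr7 (ENSMUSG00000037944, minus strand of chromosome 11 at 99144196 to 99155077), which guides lymphocytes and dendritic cells to lymph nodes, had 19 week-0 reads and 3 week-3 reads. The FPKM was 1.51 (0.910 to 2.36) before and 0.390 (0.0805 to 1.14) after. The level was 3.87-fold lower at week-3, but the interval ran from 1.14-fold to 20.4-fold, so the lower limit of 2-fold lay inside it. Ccr7 was the only one of the 8 called genes for which this was so.

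In order of FPKM, the receptors at week-0 were Cxcr4, Ccr7, Cx3cr1, Ccr2 and Ccr1, and at week-3 they were Cxcr4, Ccr2, Ccr1, Cx3cr1 and Ccr7. At week-0, Cxcr4 was 11.04 times as high as Ccr7, and Cx3cr1, Ccr2 and Ccr1 followed with intervals that overlap from each gene to the next. At week-3, Cxcr4 was 3.47 times as high as Ccr2, Ccr2 and Ccr1 overlapped, and so did Cx3cr1 and Ccr7. This order depends in part on the gene length behind the deposited FPKM, which for most genes with several transcripts exceeded the merged exon length (exon bases counted once each). That length was 2.08 times the merged exon length for Ccr2, 1.53 times for Cx3cr1 and 1.497 times for Cxcr4, and it equalled the merged length within 0.5% for Ccr1 and Ccr7. Per merged exon length, Ccr2 stood above Cx3cr1 at week-0 by a factor of 1.03, within their intervals. At week-3 Ccr2 then stood 2.90 times above Ccr1 with intervals that no longer overlap, and Cxcr4 2.50 times above Ccr2. The ratio between the libraries does not depend on this length.

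**Figure D2:**
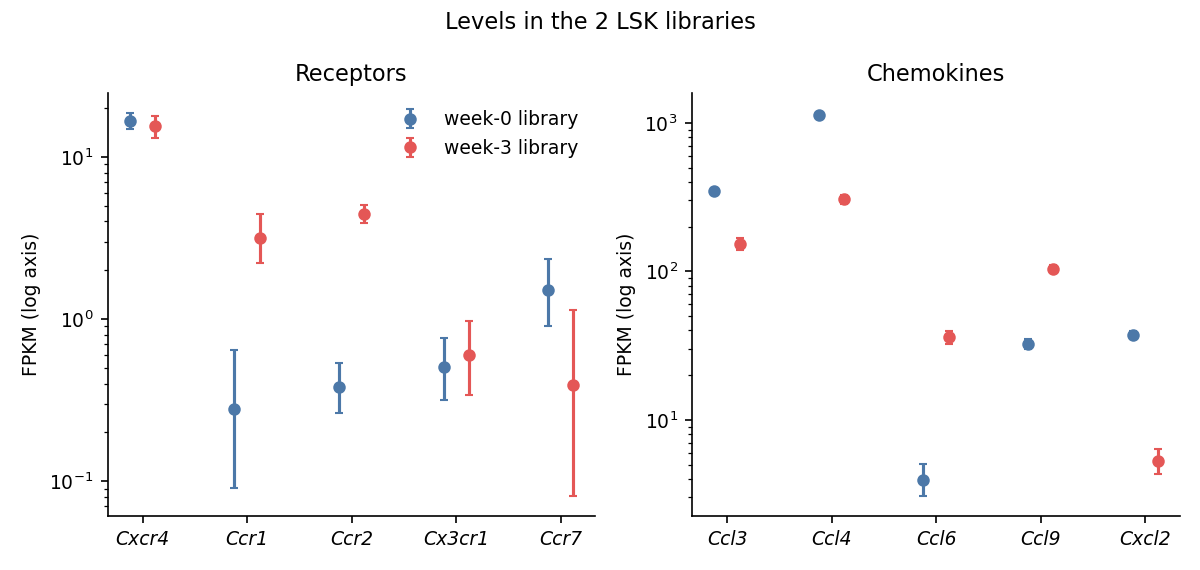
FPKM of the 5 receptors (left) and the 5 chemokines (right) in the week-0 library (blue) and the week-3 library (red), on a log axis, with exact Poisson 95% intervals of the reads. Cxcr4 is at 16.7 and 15.4, Ccr1 and Ccr2 go from below 0.4 to above 3, and among the chemokines Ccl4 is the highest in both libraries, at 1138 and 304.8.

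The most abundant chemokines were Ccl4 and Ccl3, which encode the inflammatory chemokines MIP-1beta and MIP-1alpha and lie next to each other on chromosome 11. Ccl4 (ENSMUSG00000018930, plus strand, at 83662584 to 83664683), an attractant of macrophages and lymphocytes, had 4774 reads at week-0, an FPKM of 1138 (1106 to 1171), and 782 reads at week-3, an FPKM of 304.8 (283.9 to 327.0). It was 3.73-fold lower at week-3 (3.46 to 4.03), a log2 ratio of -1.90. Ccl3 (ENSMUSG00000000982, minus strand, at 83647844 to 83649355), a ligand of Ccr1, was read 1698 times in the week-0 library, an FPKM of 348.8 (332.4 to 365.7). In the week-3 library it was read 455 times, an FPKM of 152.8 (139.1 to 167.5), which is 2.28-fold lower (2.06 to 2.54), a log2 ratio of -1.19. Both genes were thus lower at week-3, with intervals far from overlapping, and both remained the 2 highest of the 5 chemokines.

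The difference of Ccl4 between the libraries was larger than that of Ccl3 beyond counting error. The ratio of Ccl3 was 1.64 times that of Ccl4 (1.44 to 1.86), and Ccl4 took 73.8% (72.7 to 74.8) of the reads of the pair at week-0 and 63.2% (60.5 to 65.9) at week-3. Shares within a pair do not depend on how the libraries are scaled. The coding sequences of Ccl3 and Ccl4 are identical at 68.1% of aligned positions, the highest of all pairs among the 5 chemokines, but neither shared a 50-base word of its transcripts with another gene.

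Cxcl2 (ENSMUSG00000058427, plus strand of chromosome 5 at 90903871 to 90905938), a neutrophil attractant that acts through Cxcr2, had the lowest ratio of the 10 genes. It had 1224 week-0 reads and 105 week-3 reads, with an FPKM of 37.3 (35.3 to 39.5) and 5.24 (4.29 to 6.34). The level was 7.13-fold lower at week-3 (5.84 to 8.79), at rank 416 from the bottom among 12192 genes. Cxcl2 was above Ccl9 and Ccl6 at week-0 and below both at week-3. Cxcl3, with which it shares 126 of its 2159 transcript words of 50 bases, had 7 reads at week-0 and none at week-3.

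Cxcl2 is a known NF-kappaB target, and the RefSeq sequence upstream of its start (GRCm38.p6, plus strand, chr5:90903749-90903848, from 150 to 51 bases before the start) is shown because Cxcl2 was the only one of these genes with a match to a kappaB-type motif. Capitals mark the 2 overlapping matches, 1 on each strand, to GGGA, any 2 bases and TTCC.
Cxcl2: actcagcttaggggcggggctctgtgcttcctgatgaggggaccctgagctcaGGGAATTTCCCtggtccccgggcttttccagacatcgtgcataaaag
Of 32536 mouse promoters, 1.21% held this motif on either strand in the 250 bases before the start. Of the 10 genes, 8 had a promoter in this table and Ccl4 and Ccr7 had none. Cxcl2 alone of the 8 held the kappaB-type motif. Ccl9 alone matched TGANTCA, a loose AP-1-type pattern that allows any middle base, with TGAATCA from 53 to 47 bases before its start. With any middle base, this pattern was found in 6.73% of promoters. None held the STAT-type motif TTCNNNGAA, found in 7.04%. A match is a description of the sequence and does not show that a factor binds there.

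Early response genes, which are induced within minutes by many stimuli and include the NF-kappaB feedback genes Nfkbia and Tnfaip3, were lower along with Ccl3, Ccl4 and Cxcl2. Of 22 such genes 20 were past 2-fold lower, none was higher, and the median log2 ratio was -2.35, with 1 gene (Egr3, at 0 at week-3) set to its bound. The 4 with the most reads were Fos (36852 reads, then 13025, log2 ratio -0.79), Egr1 (41528 and 2859, -3.15), Zfp36 (30697 and 6802, -1.46) and Nr4a1 (32122 and 1369, -3.84). The summed FPKM of all 22 genes was 18386 at week-0 and 5157 at week-3. The 22 genes together took 5.03% of all reads at week-0 against 1.34% at week-3. The log2 ratio was -2.57 for Nfkbia and -4.26 for Tnfaip3. The part of these genes in the values of Ccl3, Ccl4 and Cxcl2 was not tested.

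Ccl6 and Ccl9 (also known as C10 and MIP-1gamma) are rodent CC chemokines made by myeloid cells, and both act on Ccr1. Ccl6 (ENSMUSG00000018927, minus strand of chromosome 11 at 83587882 to 83593087) had 64 reads at week-0, an FPKM of 3.95 (3.05 to 5.05), and 356 reads at week-3, an FPKM of 36.0 (32.3 to 39.9). It was 9.10 times as high at week-3 (6.95 to 12.1), a log2 ratio of 3.19, at rank 76 from the top among 12192 genes. Ccl9 (ENSMUSG00000019122, minus strand, at 83572919 to 83578636) was read 667 times in the week-0 library, an FPKM of 32.6 (30.1 to 35.1). In the week-3 library it was read 1304 times, an FPKM of 104.1 (98.5 to 109.9), which is 3.20 times as high (2.91 to 3.52). Both genes were higher at week-3 with no overlap of their intervals, and Ccl9 had more reads at week-3 although that library was smaller.

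The ratio of Ccl6 was 2.84 times that of Ccl9 (2.14 to 3.83). Of the reads of the pair, Ccl6 took 8.76% (6.81 to 11.04) at week-0 and 21.4% (19.5 to 23.5) at week-3, so Ccl9 remained the more abundant. The coding sequences are identical at 64.6% of aligned positions. Because the pair moved the same way, the 100 bases before each start are shown from RefSeq (GRCm38.p6, minus strand, Ccl6 at chr11:83593088-83593187 and Ccl9 at chr11:83578637-83578736). Capitals mark stretches of at least 8 bases found in both windows.
Ccl6: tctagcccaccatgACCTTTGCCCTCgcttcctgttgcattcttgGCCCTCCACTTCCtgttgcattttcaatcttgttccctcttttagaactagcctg
Ccl9: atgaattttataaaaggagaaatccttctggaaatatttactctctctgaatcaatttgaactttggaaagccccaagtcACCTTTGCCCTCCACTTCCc
The shared stretches cover 25 bases in Ccl6 and 19 in Ccl9, and in Ccl9 they form a single run of which Ccl6 holds overlapping pieces at other positions. Over 250 bases before the start, the 2 genes were identical at 47.2% of aligned positions, within the range of the other pairs among the 8 promoters, 41.0% to 49.1%.

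In order of FPKM, the chemokines were Ccl4, Ccl3, Cxcl2, Ccl9 and Ccl6 at week-0 and Ccl4, Ccl3, Ccl9, Ccl6 and Cxcl2 at week-3, and no neighbours in either order had overlapping intervals. The order was the same per merged exon length, although the deposited FPKM used 2.49 times that length for Cxcl2 and 1.42 times for Ccl6. Per merged exon length, Cxcl2 was at 93.1 at week-0 and 13.1 at week-3. Of all reads on chemokine genes, Ccl4 took 51.6% (50.5 to 52.6) at week-0 and 22.9% (21.5 to 24.4) at week-3. Ccl9 took 7.21% (6.69 to 7.75) at week-0 and 38.2% (36.6 to 39.9) at week-3, the largest share of that library. The 5 chemokines together took 91.0% of the chemokine reads at week-0 against 88.0% at week-3. The 5 receptors took 30.7% of the receptor reads at week-0 against 67.4% at week-3, and much of the remainder at week-0 was Ccrl2.

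**Figure D3:**
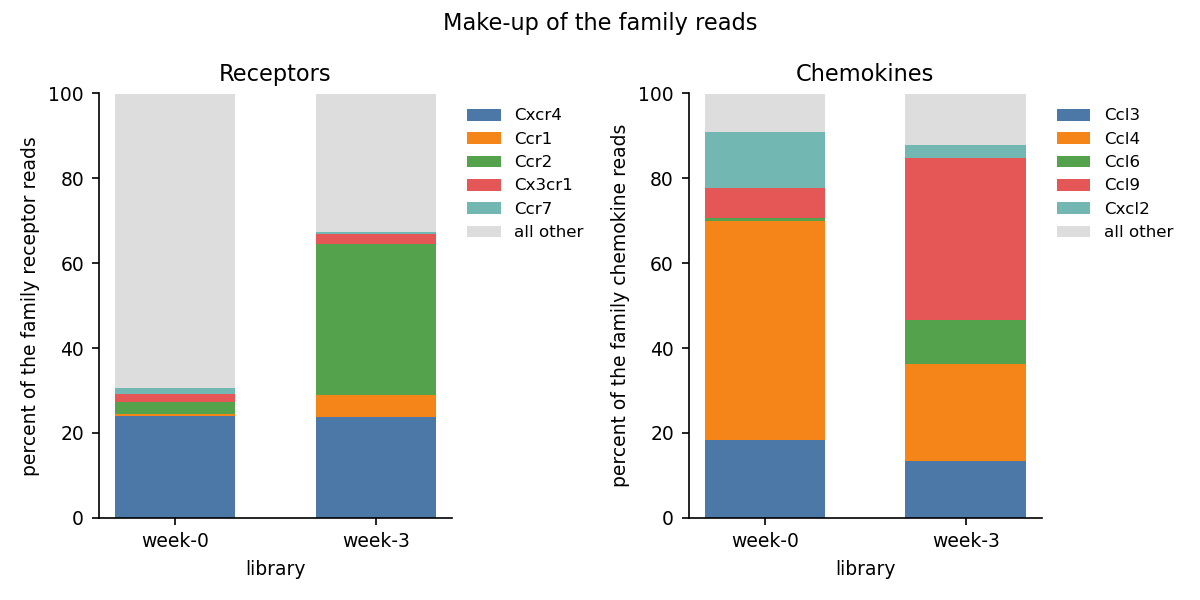
Percent of the reads on all chemokine receptor genes (left) and all chemokine genes (right) that each of the 10 genes took in the 2 libraries, with other family genes in grey. Cxcr4 is at 23.98% and 23.82% of a total that includes Ccrl2, Ccr2 goes from 2.84% to 35.6%, Ccl4 from 51.6% to 22.9%, and Ccl9 from 7.21% to 38.2%.

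On chromosome 11 the 4 CC chemokine genes lie in 1 stretch, with Ccl5 at its left end. Ccl9 and Ccl6 are 9.24 kb apart, 54.8 kb lie between Ccl6 and Ccl3, and Ccl3 and Ccl4 are 13.2 kb apart. The inner pair Ccl9 and Ccl6 was higher at week-3, with log2 ratios of 1.68 and 3.19, whereas Ccl5 on one side (40 and 9 reads, log2 ratio -1.44, interval -2.67 to -0.38, which holds the 2-fold limit) and Ccl3 and Ccl4 on the other (-1.19 and -1.90) were lower. The only other genes of the stretch in the tables, E230016K23Rik and Rpl9-ps1, had at most 2 reads in a library. On chromosome 9, Ccr1 and Ccr2 lie 133.3 kb apart, and Ccr3 and Ccr1l1 between them had no reads in either library.

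**Figure D4:**
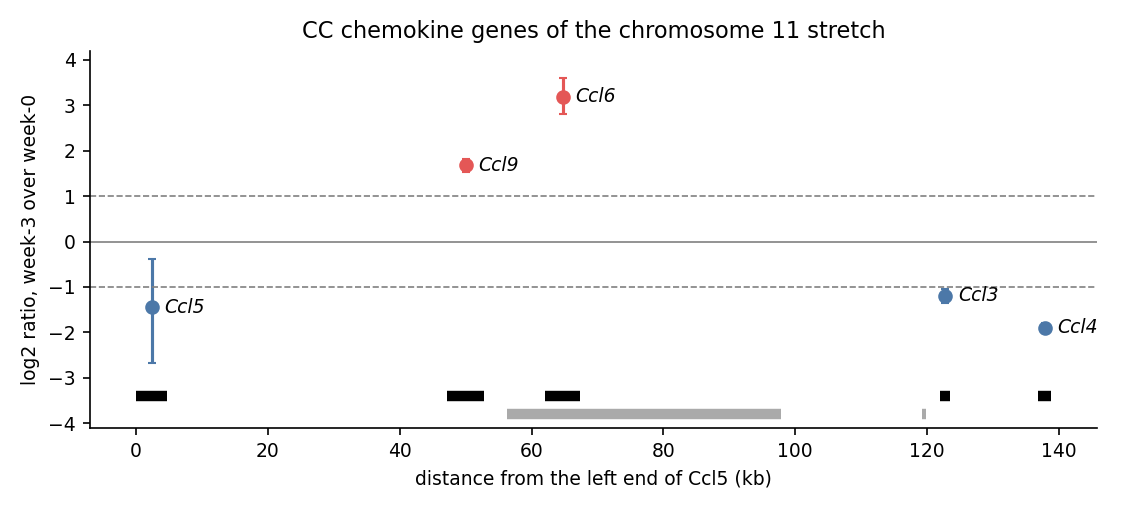
Log2 ratio of week-3 over week-0, with exact 95% counting intervals, for the 5 compared CC chemokine genes of the chromosome 11 stretch, against the distance in kb from the left end of Ccl5; black bars below show these genes and grey bars the 2 genes with too few reads. Ccl9 and Ccl6 lie above the upper 2-fold limit, at 1.68 and 3.19, between Ccl5, Ccl3 and Ccl4, which lie below the lower limit, Ccl5 with an interval that crosses it.

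Across all pairs of the 10 genes, the difference in ratio exceeded counting error for all but 7 of 45. These pairs were Cxcr4 with Cx3cr1 and, among genes called in the same direction, Ccr1 with Ccr2, each of these with Ccl6, and Ccr7 with Ccl3, Ccl4 and Cxcl2. Ccr7, Ccr1 and Cx3cr1 had at most 35 reads in a library.

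Set beside their receptors, the ligands did not follow a common direction. Ccr1 was higher at week-3 together with its ligands Ccl6 and Ccl9, while its ligand Ccl3 was lower. Ccr2 was higher together with its ligand Ccl2, which had 43 reads at week-0, 193 at week-3 and a level 7.34 times as high at the later time point (log2 ratio 2.88, interval 2.39 to 3.39). Its other ligand Ccl7 had 1 read at week-0 and 11 at week-3, too few for comparison. Cxcr2, the receptor of Cxcl2, had 49 and 53 reads and a log2 ratio of 0.82 (0.23 to 1.41), while Cxcl2 itself was lower. For Cxcr4, the ligand Cxcl12, which is made mainly by stromal cells, had 27 week-0 reads and 2 week-3 reads, a log2 ratio of -3.05 (-6.16 to -1.05). Cx3cl1, the ligand of Cx3cr1, had 134 reads at week-0 and none at week-3, and was at least 27.3-fold lower when 3 reads are taken as the most that a count of 0 allows. The Ccr7 ligand Ccl19 had 10 reads at week-0 and none at week-3, and the Ccl21 genes had none in either library.

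The wider family comprised 65 gene symbols, which fill 70 rows of the tables because Ccl21a, Ccl21c and Ccl27a are listed in several copies. Of these rows, 25 could be compared, 20 had no reads in either library and 25 had from 1 to 19 reads over both. Of the 25, 5 were higher and 13 were lower, and the median log2 ratio was -1.19, against 0.07 over all genes. Apart from the 10 genes described here, 15 family genes could be compared. Of these, Ccl2 alone was higher and 9 were lower, while 5 (Cxcr2, Ccl25, Ccl27a, Pf4 and Cxcl10) were past neither limit, with log2 ratios from -0.93 to 0.82. The atypical receptor Ccrl2 had the most reads of the 9 lower genes, 627 at week-0 and 131 at week-3, a log2 ratio of -1.55 (-1.83 to -1.28). The others were Ccl5, described above, Ccr9 (59 and 3 reads), Cxcr3 (32 and 2), Ppbp (28 and 2), Cxcl16 (19 and 1), Cxcl12 and Cx3cl1, given above, and Xcl1 (42 and 0, at least 8.56-fold lower). Several of these had few reads, and a gene found mainly in the deeper week-0 library reached 20 reads at a lower level than one found mainly at week-3. Among family genes with at least 100 reads, 4 of 14 were higher and 5 were lower, against 7.51% and 11.4% of all genes with that many reads.

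**Figure D5:**
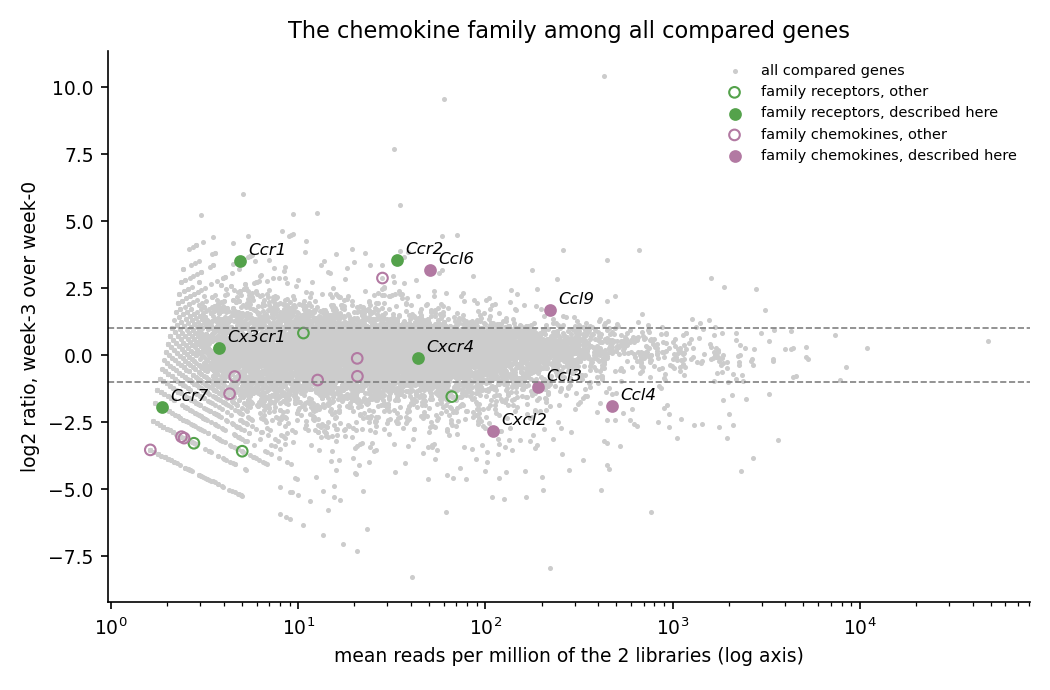
Log2 ratio of week-3 over week-0 against the mean of the reads in the 2 libraries, each scaled by its total (log axis) for all compared genes (grey) and the chemokine family (green receptors, purple chemokines; filled points are the genes described here); Cx3cl1 and Xcl1, at 0 at week-3, cannot be drawn. Ccr1, Ccr2, Ccl6 and Ccl9 lie above the upper 2-fold line with 1 other family gene, Ccl2, while most other family genes lie below 0.

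The genes that carry the signal from these receptors had log2 ratios from -1.81 to 1.20, a narrower range than that of the family. Few reads can widen such a range, as for the family gene Ccr9 (59 and 3 reads). Cxcl2 (-2.83) and Ccr2 (3.54), with more reads, also lay outside the range of the effectors. Of 20 G protein and migration effectors, 1 was higher and 4 were lower, with a median log2 ratio of -0.20. The shares of all genes were 10.6% higher and 15.6% lower, and a difference of this short list from them was not tested. Pik3r5, a regulatory subunit of the PI3-kinase that G proteins activate, had 44 week-0 reads and 62 week-3 reads (log2 ratio 1.20, 0.62 to 1.80), and the next largest ratios were those of Gnb1 (0.78), Vav1 (0.70) and Gnai2 (0.53), the inhibitory G protein alpha subunit through which chemokine receptors signal. The lowest ratios were those of the focal adhesion kinase relative Ptk2b (-1.81), the actin regulators Was (-1.22) and Dock2 (-1.11), and the phospholipase Plcb2 (-1.07). The small GTPases Rac1, Rac2 and Cdc42 lay between -0.13 and 0.14, and were added to the named genes after their values were seen.

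Of 11 compared genes that end receptor signalling, none was higher and 2 were lower, both RGS proteins, which speed the switching off of G proteins. The share of lower genes, 18.2%, lay near that of all genes, 15.6%, while 10.6% of all genes were higher. Rgs1 had 11865 week-0 reads and 1383 week-3 reads, a log2 ratio of -2.39 (-2.47 to -2.31), and Rgs2 had 9180 and 1417, a log2 ratio of -1.99 (-2.07 to -1.91). Rgs3 (-0.99) and Rgs18 (-0.24) followed. The largest ratios were those of Rgs14 (0.70), the receptor kinase Grk6 (0.35), Rgs19 (0.29) and the arrestin Arrb2 (0.27). The median log2 ratio of these 11 genes was 0.03.

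Of 12 genes linked to Cxcr4 or to the holding of cells in the BM, none was higher and 2 were lower, with a median log2 ratio of -0.23. The lower genes were Robo4 (138 week-0 reads and 34 week-3 reads, log2 ratio -1.31) and Esam (213 and 63, -1.05), both membrane proteins of stem cells and endothelium. Cd44 (-0.95) and Itgal (-0.61) came next, and the largest ratios were those of the integrin genes Itgb2 (0.81), Itgb1 (0.25) and Itga5 (0.04) and of Dpp4 (0.01), a peptidase that cleaves Cxcl12. The share of lower genes in this list, 16.7%, lay near that of all genes, 15.6%. The share of higher genes was 0%, against 10.6% of all genes, in a list of only 12 genes.

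Markers of myeloid and mast cells were higher in the same library as Ccr1, Ccr2, Ccl6 and Ccl9. Of 12 compared monocyte and macrophage genes (18 in the tables), 4 were higher and none was lower, with a median log2 ratio of 0.75 and a summed FPKM of 310.5 at week-0 and 533.3 at week-3. Those with the most reads were Ly6c2 (log2 ratio 2.20), Lyz2 (0.20), F13a1 (2.32) and Ctss (0.11). The macrophage genes Adgre1, C1qa and C1qb had at most 5 reads in either library, C1qc had none at week-3, and Fcgr1 had 6 reads, all of them at week-3. Of 12 neutrophil genes 11 were higher, with Mpo (1.68), Elane (2.46), Prtn3 (2.53) and Ctsg (2.88) having the most reads, and the summed FPKM was 2064 at week-0 and 11086 at week-3. Of 12 mast cell and basophil genes 9 were higher and 1 was lower, with a summed FPKM of 294.5 and 3291. The mast cell tryptase Tpsb2 had no reads at week-0 against 5442 at week-3, Mcpt4 had none and 93, Cpa3 had a log2 ratio of 3.92 and Cma1 of 10.42, and Prss34 was lower (-1.06). The part of these cell types in the values of the 4 higher genes was not tested.

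Markers of dendritic, B and erythroid cells were mostly lower in the same library as Ccr7, Ccr9, Cxcr3 and Xcl1. Of 9 compared dendritic cell genes 6 were lower and none was higher, with a summed FPKM of 536.5 at week-0 against 224.9 at week-3, and those with the most reads were Cd74 (log2 ratio -5.03), Irf8 (0.83), Bst2 (-0.29) and Tcf4 (-0.44). Of 5 compared B cell genes 3 were lower and none was higher, with a summed FPKM of 296.8 and 35.4, among them Jchain (5120 and 96 reads) and Mzb1 (218 and 1), while Cd79b (0.17) was not. Of 12 T cell and NK cell genes only Lck (-0.94) and Nkg7 (0.60) had enough reads, the summed FPKM was 291.6 and 429.2, and Cd8b1 had no reads in either library. Of 12 erythroid and megakaryocyte genes 7 were lower and none was higher, with a summed FPKM of 657.1 and 91.6, led by Hbb-bs (-3.70), Hba-a1 (-5.28), Itga2b (0.93) and Car1 (-2.41). This list also holds the platelet chemokines Pf4, with 137 and 77 reads, and Ppbp. The part of these cell types in the values of Ccr7 and the other lower genes was not tested.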

How the data were processed

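Sorted BM LSKs gave 1 RNA-seq library per time point. The study's methods name a low-input cDNA kit that does not mark strand, while the labels name only a standard Illumina protocol. The authors mapped the paired reads to GRCm38 (mm10) with TopHat2 2.0.9 and deposited counts, as whole numbers of reads per gene without normalization. The authors also deposited FPKM, scaled by gene length and total reads. The counting tool and annotation release were not given in the sources used here.

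Ratios were computed from the reads and total reads (they equalled the FPKM ratios within 0.001 log2 units where both libraries had reads). The genes compared had at least 20 reads over both libraries, and a call needed a ratio of at least 2 or at most 0.5. Without replicates no test was used for a main value, and edgeR's exact test with an assumed variation was an alternative only. Coordinates are those of the deposited tables. Coding identities, exon lengths and 50-base words came from GENCODE M21 (GRCm38), and promoters from RefSeq (GRCm38.p6). No protein table was used, so coding sequences were aligned in place of the proteins planned.

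The members and gene lists were chosen with earlier results of these data known. The named genes were all 10 members, family genes past 2-fold, the 4 largest and 4 smallest ratios of the effector, desensitisation and retention lists, and up to 4 genes with the most reads of each early response and cell type list. Other genes with few or no reads, Nfkbia and Tnfaip3, and family genes past neither limit were named in addition.

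Alternatives used edgeR 4.0.16 and DESeq2 1.42.0 in R 4.3.3, with Python 3.11.15 and scipy 1.17.1. The calls and intervals were tried on simulated data with counting error only, which could not show the effect of spread between mice. There, all 200 genes changed 4 times either way were called right, and 181 unchanged genes were also past the fold. The 200 genes were drawn only from genes with at least 20 expected reads in the smaller library. Ccr7, Ccr1 and Cx3cr1 do not reach that level, so this result does not cover them. Values of 2 listed genes are not reported here.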

Additional observations from a re-analysis of the deposited data

How the results depend on the processing

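Scaling by TMM moved every log2 ratio by -0.11 and median-of-ratios scaling by -0.09, and the log2 ratios of the 10 genes kept their direction in all 40 values under these scalings and the pseudocounts of 0.1 and 1. With TMM the log2 ratio of Ccl4 was -2.01, outside its counting interval, and with log2(FPKM + 1) those of Ccr1 and Ccr2 were 1.71 and 1.98, since a pseudocount understates changes of low genes. The 4 higher and 4 lower calls among the 10 genes were unchanged in number with either scaling, with a fold of 1.5 and with at least 1 read, while the shares of all genes rose to 23.7% higher and 24.6% lower with a fold of 1.5 and to 19.9% and 25.9% with at least 1 read. With at least 100 reads they were 3 and 3, because Ccr1 and Ccr7 were no longer compared, and with the whole interval past 2-fold 4 and 3. The shares of all genes were then 7.51% higher and 11.4% lower with at least 100 reads, and 3.69% and 7.6% with the whole interval past 2-fold. Assuming a biological coefficient of variation of 0.4 in edgeR's exact test left 2 higher (Ccr2 and Ccl6) and 0 lower, and of all 12192 genes 0.41% and 1.63%; nothing in the data gives this number. With 0.1 the counts were 4 and 3, and of all genes 9.42% were higher and 13.5% lower. The same assumption of 0.4 left 2 higher and 2 lower family genes and 0 and 0 effector and desensitisation genes. With at least 1 read the family had 9 higher and 24 lower of 50 genes, 18.0% and 48.0%, and with at least 100 reads 5 lower genes. Among effector and desensitisation genes, a fold of 1.5 gave 4 higher, and the whole-interval limit gave 0 higher. Reads per merged exon length, an alternative chosen after seeing the data, put Ccr2 at place 3 and Cx3cr1 at place 4 at week-0, in exchange, and changed no other place of the 20. No paired analysis was possible because each time point has 1 library. The depth limits most of all Ccr7, Ccr1 and Cx3cr1, and 3 reads corresponded to 0.472 reads per 1000000 at week-0 and 0.772 at week-3.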

Other observations

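The length behind the deposited FPKM was compared with GENCODE M21 for 12172 genes with at least 20 reads. For genes with 1 transcript it equalled the exon length within 0.5% in 84.7% of 1624 genes. For 10548 genes with several transcripts it equalled the merged exon length in 1.02% and the sum over distinct exons, in which overlapping exons of different transcripts count more than once, in 66.6%. The median length for such genes was 1.30 times the merged exon length. A comparison of FPKM between genes with different numbers of transcripts is moved by this length, as for Cxcl2, with 4 transcripts and a length 2.49 times the merged exon length, against Ccl3 and Ccl4, with 1 transcript each and equal lengths.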
